A study of Mus musculus with 95 samples.

Results

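The interleukin 1 (IL-1) family and its receptors were followed in 95 RNA-Seq libraries through 10 genes, Il1a, Il1b, Il33, Il18, Il1rn, Il18bp, Il1r1, Il1rap, Il1rl1 and Il1r2, of the 25407 gene symbols listed. The genes were chosen by family name, with earlier results of these data known, and all 10 symbols were found. No single contrast and no threshold on a measured value defined the set. The study profiled sciatic nerve (SCN), dorsal root ganglia (DRG), isolated kidney glomeruli (Glom) and kidney cortex (Cortex) of male mice of the strain BKS.Cg-m +/+ Leprdb/J. The db/db mice carry 2 mutated copies of the leptin receptor gene and develop obesity and type 2 diabetes, and the db/+ controls carry 1 mutated copy. In each tissue 4 groups were compared at 16 weeks of age, db/+ and db/db without drug, and db/+ PIO and db/db PIO, in which PIO stands for pioglitazone at 15 mg/kg for 11 weeks. Pioglitazone is a drug that activates the nuclear receptor PPARG. There were 6 libraries a group, and 5 for db/db in DRG. The mutation is present in every cell of the mouse and whole tissues were sequenced, so that fewer cells of a type and less RNA per cell cannot be told apart.

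IL-1 alpha and IL-1 beta are alarm cytokines that bind the receptor encoded by Il1r1 together with the accessory chain encoded by Il1rap, and the assembled receptor signals through MYD88, IRAK kinases and NF-kB. IL-33 uses the same accessory chain with the receptor encoded by Il1rl1, and IL-18 uses a receptor pair of its own. The family is held in check by a competing ligand encoded by Il1rn, by a decoy receptor encoded by Il1r2 and by the binding protein encoded by Il18bp. IL-1 beta and IL-18 are made as inactive precursors and are cut by caspase 1 in the inflammasome, so that an mRNA level does not give the amount of active cytokine.

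The start sites of ligands and receptors were set side by side because the genes are described by role. RefSeq promoters on build GRCm38.p6, reaching from 250 bases before to 50 after each start, were matched by symbol for 10 of 10 genes and gave 15 start sites. The letters TATAAA, searched on both strands anywhere in the 300 bases, were present at 5 of the 5 start sites of the 4 ligand genes, at 1 of 4 of the inhibitor genes and at 0 of 6 of the receptor genes, beside 13.6% of 32851 mouse promoters of the same length. Only 3 of these 6 matches lay on the given strand within the 60 bases before the start. The others lay further before the upstream start of Il33, further before the start of Il18 on the opposite strand, and after a start of Il1rn on the opposite strand. The AP-1 motif TGANTCA was present at 2 of the 15 sites (7.81% of all promoters) and the STAT motif TTCNNNGAA at 1 (8.30%). The 60 bases before the start site are shown for the 3 ligands with the motif close to the start and for the shared receptor chain, with TATAAA on the given strand in capitals.
Il1a: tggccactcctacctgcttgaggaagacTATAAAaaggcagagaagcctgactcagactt
Il1b: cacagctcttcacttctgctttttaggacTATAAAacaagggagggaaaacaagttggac
Il33, downstream start: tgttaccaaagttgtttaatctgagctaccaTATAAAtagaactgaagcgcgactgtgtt
Il1rap: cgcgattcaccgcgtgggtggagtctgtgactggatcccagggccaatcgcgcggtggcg
These stretches lie at chr2:129309973-129310032 (minus strand), chr2:129371140-129371199 (minus strand), chr19:29945730-29945789 (plus strand) and chr16:26581645-26581704 (plus strand). The motif began 32 bases before the start site in Il1a, 31 in Il1b and 29 in Il33, and a match of letters does not show that a factor binds there.

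The deposited unit is FPKM, a fragment count scaled by transcript length and by sequencing depth, so that levels may be compared between genes. No read totals entered, and each value is as precise as the spread between libraries allows. Between 7333 and 10432 genes per library had an FPKM above 0. A 0 was read as a missing value, since 74 of 95 libraries listed Actb at 0 and 34 listed Gapdh at 0, and a 0 of a family member says nothing about its level. The proximal tubule transporter Slc34a1 was at 1525 FPKM or above in 5 of 24 Cortex libraries and at 0 in the others. The proximal tubule genes Lrp2, Slc5a2 and Slc22a6 were listed at 0 in all 24 Cortex libraries, so that the label Cortex could not be checked on them. The sensory neuron genes Prph, Scn9a, Scn10a and Trpv1 were listed at 0 in all 23 DRG libraries and Calca had 1 value, so that the label DRG could not be checked on them.

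**Figure D1:**
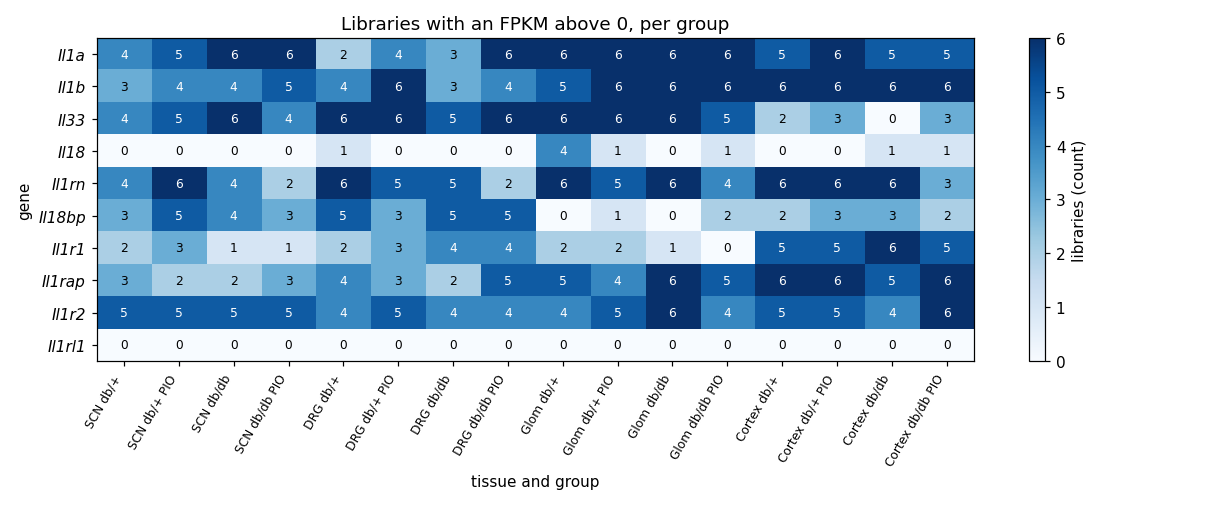
Each cell gives the number of libraries with an FPKM above 0 for a gene (rows) in 1 of the 16 groups (columns), from 0 (white) to 6 (dark blue). Il1rl1 had no value in any group and Il18 had 9 values in all, whereas Il1a, Il1b, Il1rn, Il1r2 and Il33 had values in most groups.

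Genes were compared between groups with limma on log2(FPKM + 1), which understates the change of low genes, and a DEG was called at a Benjamini-Hochberg adjusted p below 0.05 over all genes tested. A gene entered the fit of a tissue when 5 or more libraries reached 1 FPKM, and was tested when both groups had 3 or more values. Of 160 possible pairings of a gene with a group comparison, 47 could be tested and 6 were called. The 6 calls were Il33 and Il1rn in SCN and Il1b in Cortex for db/+ versus db/db, and Il1r1 and Il1r2 in DRG and Il1b in Cortex for db/+ PIO versus db/db PIO. The 41 other log2 fold changes lay between -0.55 and 0.63, with a median of 0.02.

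The members called were set beside the share of all tested genes called in the same comparison. For db/+ versus db/db, 2 of 3 members tested were called in SCN (14.9% of 4233 genes), 0 of 2 in DRG (4.13% of 3829), 0 of 3 in Glom (25.4% of 4210) and 1 of 3 in Cortex (10.3% of 3925). For db/+ PIO versus db/db PIO, 0 of 2 were called in SCN (33.8% of 4402), 2 of 4 in DRG (8.64% of 4095), 0 of 3 in Glom (8.41% of 4255) and 1 of 4 in Cortex (19.7% of 3865). The SCN count includes Il1rn and the treated DRG count includes Il1r2, which passed the filter on low values only through the diabetic libraries in which they are high. The called member in Cortex was Il1b, which passed it through the non-diabetic libraries in which it is high. Nothing is read from these counts. With so few members tested, these counts do not set the family apart from other genes. Pioglitazone gave no member call. In db/db mice the drug called 0 of 2 members in SCN (10.1% of 3940 genes), 0 of 3 in DRG (0% of 3794), 0 of 3 in Glom (23.1% of 4158) and 0 of 3 in Cortex (3.24% of 3890). In db/+ mice it called 0 of 3 in SCN (0.0778% of 5142), 0 of 3 in DRG (0% of 4153), 0 of 3 in Glom (0% of 4419) and 0 of 3 in Cortex (0.025% of 4004). Where limma called 0 genes, 325 genes had an unadjusted p below 0.05 for the drug in DRG of db/db mice, and 403 in DRG and 118 in Glom of db/+ mice.

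**Figure D2:**
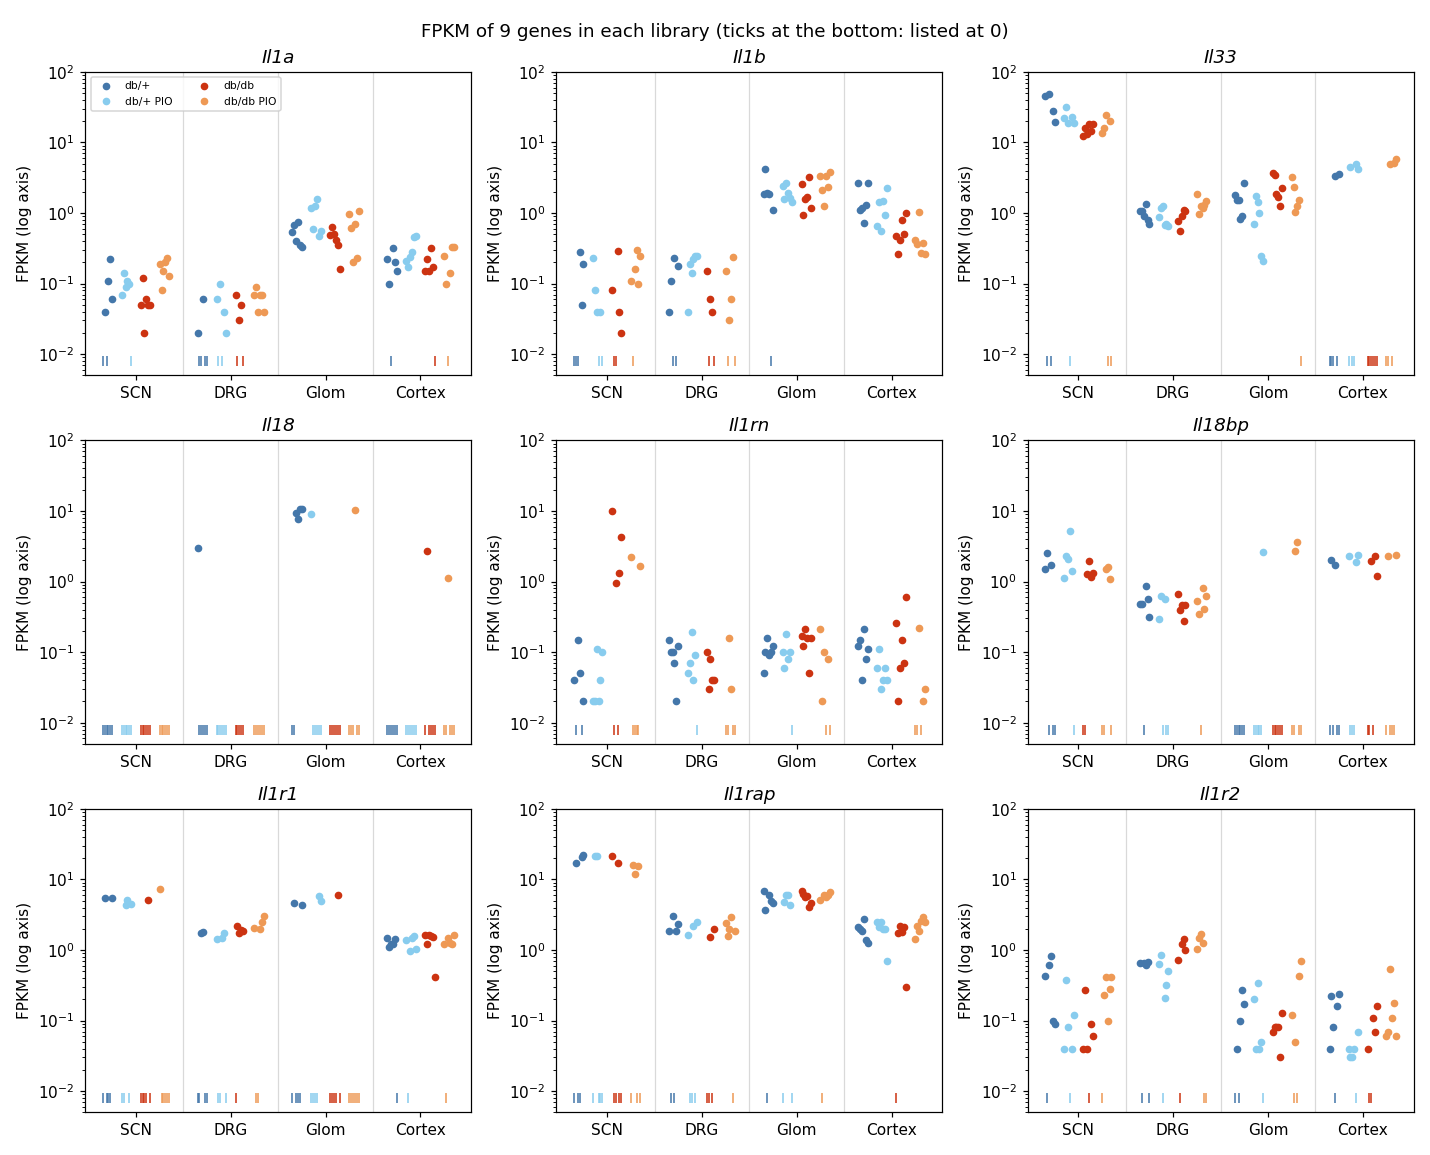
Each point is the FPKM (log axis) of a gene in 1 library, by tissue and coloured by group, and ticks at the bottom mark libraries listed at 0. Il33 and Il1rap were highest in SCN, Il1b and Il1a in Glom, and Il1r2 in DRG, and Il1rn rose above 0.9 FPKM in SCN of db/db and db/db PIO mice only among the libraries with a value.

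Il1b, which encodes the inducible and secreted ligand IL-1 beta, had its highest values in Glom and Cortex. In Cortex its values were mostly lower in diabetic mice, with groups that overlapped and calls near the threshold. It lies at chr2:129190306-129196875 on build mm9, on the minus strand, with 7 exons in its longest transcript. It ranged from 0.93 to 4.27 FPKM in Glom and from 0.26 to 2.65 in Cortex, but did not exceed 0.30 in SCN or 0.25 in DRG. In Cortex the lowest, median and highest values were 0.73, 1.25 and 2.65 FPKM in db/+ mice. They were 0.26, 0.50 and 1.00 in db/db mice. The db/db libraries were mostly below the db/+ libraries, with 2 of 6 above the lowest db/+ value. Il1b fell by 0.68 on the log2 scale (SE 0.19, n = 6 and 6), with an adjusted p of 0.0233 from limma. In the treated mice the values were 0.55, 1.19 and 2.26 FPKM in db/+ PIO and 0.26, 0.37 and 1.04 in db/db PIO Cortex. The groups overlapped again, with 1 db/db PIO library at 1.04 and the other 5 at or below 0.41. Il1b fell by 0.58 (SE 0.19, n = 6 and 6), with an adjusted p of 0.0328 from limma.

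Both Cortex calls were near the threshold. Il1b reached 1 FPKM in 5 db/+ and 3 db/+ PIO Cortex libraries, and in 1 db/db and 1 db/db PIO library. It thus entered the fit through the non-diabetic groups in which it is high, so that its calls there are no support. Both calls remained with no filter on low values. The adjusted p from limma rose to 0.0627 at most for db/+ versus db/db, and passed 0.05 without db/+ replicate 1, db/+ replicate 6 or db/db replicate 2. In the treated mice it rose to 0.0985 at most, and passed 0.05 without any 1 of 8 libraries, namely db/+ PIO replicates 2, 4 and 6 and db/db PIO replicates 1, 2, 4, 5 and 6. Most of the tested macrophage markers moved the same way. For db/+ versus db/db in Cortex, 4 of 5 tested macrophage markers fell, including the microglia and macrophage gene Aif1 by 1.47 and the lysozyme gene Lyz2 by 0.95 on the log2 scale, and 6 of 7 fell in the treated mice. The defining marker Cd68 was not among those tested. Of 11 macrophage markers listed, the 3 with a value in every Cortex library (Cd14, Mrc1 and Cd163) had sums from 3.58 to 10.02 FPKM in db/+ mice, from 3.61 to 6.05 without drug in db/db mice, from 3.05 to 5.88 in treated db/+ mice and from 2.15 to 4.42 in treated db/db mice. The medians of these sums were close without drug, at 5.965 in db/+ and 5.345 in db/db mice. They were 3.725 in db/+ PIO and 2.71 in db/db PIO mice. The part of macrophage content in the Il1b result was not tested.

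In Glom, where Il1b was highest, no group difference was called. The median was 2.82 FPKM in db/db PIO, 1.77 in db/+ PIO and 1.63 in db/db mice (n = 6 each), beside 1.88 in the 5 db/+ libraries with a value, and the 4 groups overlapped. The log2 fold change of db/db versus db/db PIO was 0.39 (SE 0.22, adjusted p = 0.201 from limma), and quantile normalization gave 0.71 with an adjusted p of 0.0100. The neutrophil markers S100a8 and S100a9 rose in the same comparison by 1.41 and 1.38 on the log2 scale. Of 11 neutrophil markers, S100a8, S100a9 and Cxcr2 had a value in every Glom library, with sums from 14 to 71.1 FPKM without the drug and from 39.7 to 157 with it in db/db mice. Macrophage markers moved the other way, and 4 of 6 had a lower level with the drug, with log2 fold changes of -3.15 for C1qb, -3.08 for C1qa, -2.44 for C1qc and -1.48 for Aif1. The sum of Cd14, C1qa and Cd163, the 3 of 11 with a value in every Glom library, lay between 24.67 and 76.11 FPKM without the drug and between 12.47 and 15.58 with it in db/db mice. The part of neutrophil or macrophage content was not tested.

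Il1a encodes IL-1 alpha, which is active without cleavage and is stored in cells. It lies beside Il1b at chr2:129125346-129135708 (mm9, minus strand, 7 exons). Its exons overlap exons of Gm14023 and those of Il1b overlap exons of Gm14047, both annotated on the opposite strand. Reads of the 2 strands cannot be told apart with a kit that does not mark strand. Il1a stayed low, at 0.16 to 1.57 FPKM in Glom, 0.10 to 0.48 in Cortex, 0.02 to 0.23 in SCN and 0.02 to 0.10 in DRG, and did not enter a group fit. In SCN the lowest, median and highest values were 0.02, 0.05 and 0.12 FPKM in db/db mice. They were 0.08, 0.17 and 0.23 in db/db PIO mice. The groups overlapped in the range from 0.08 to 0.12, with the treated libraries mostly higher. The difference on the log2 scale was 0.14 (two-sided exact permutation test, p = 0.00433, n = 6 and 6), and without the filter on low values its adjusted p from limma was 0.0311. It was 1 of 48 such permutation tests on members below the filter, of which 5 gave an unadjusted p below 0.05. Values this close to the second decimal in which FPKM are written carry a rounding error of their own.

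Il33 encodes an alarmin that is kept in the nucleus of barrier and stromal cells, and it was the ligand with the highest level in the nerve. It lies at chr19:29999604-30035194 (mm9, plus strand, 8 exons). In SCN it was listed at 45.6, 49.0, 27.9 and 19.6 FPKM in the 4 db/+ libraries with a value. In the 6 db/db libraries the lowest, median and highest values were 12.2, 15.4 and 18.4 FPKM. Each db/+ library with a value was above each db/db library. Il33 fell by 1.08 on the log2 scale (SE 0.22, n = 4 and 6), with an adjusted p of 0.00359 from limma. This result depended on how a 0 is read, because 2 of 6 db/+ libraries were listed at 0 and no db/db library was. With each 0 entered as a value the direction turned, to a log2 fold change of 0.62 with an adjusted p of 0.826.

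Under pioglitazone the difference between genotypes in SCN was smaller and not called. The db/+ PIO libraries held 22.2, 31.4, 18.9, 23.0 and 19.1 FPKM and the db/db PIO libraries 13.7, 16.0, 24.6 and 20.03 FPKM, which overlap. The difference was -0.30 on the log2 scale (SE 0.23, n = 5 and 4, limma adjusted p = 0.333). Pioglitazone itself gave a log2 fold change of -0.55 in db/+ mice (adjusted p = 0.341) and 0.24 in db/db mice (adjusted p = 0.540), both from limma. Whether the drug altered the effect of diabetes was not tested. Mast cells, which respond to IL-33, were marked by 7 tested genes in SCN. For db/+ versus db/db 4 of them fell and 1 rose, beside 14.9% of 4233 genes called in that comparison. No mast cell marker of 8 had a value in every SCN library, so that no summed level is given, and their part in the Il33 result was not tested.

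Outside the nerve Il33 was lower, at 0.55 to 1.87 FPKM in DRG, 0.21 to 3.66 in Glom and 3.36 to 5.84 in the 8 Cortex libraries with a value. In Cortex 2 db/+ libraries held 3.36 and 3.53 FPKM, 3 db/+ PIO libraries 4.15 to 4.88 and 3 db/db PIO libraries 4.95 to 5.84, and all 6 db/db libraries were listed at 0. In Glom the log2 fold change was 0.40 for db/+ versus db/db (SE 0.24, adjusted p = 0.225) and 0.63 for db/+ PIO versus db/db PIO (SE 0.25, adjusted p = 0.127). In DRG it was 0.31 for db/+ PIO versus db/db PIO (SE 0.10, adjusted p = 0.0671) and 0.31 for db/db versus db/db PIO (SE 0.11, adjusted p = 0.362). None of these 4 values, all from limma, passed the threshold.

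Il18, the other ligand cut by the inflammasome, had a value in 9 of 95 libraries and could not be compared. It lies at chr9:50383378-50389942 (mm9, plus strand, 5 exons). The values were 9.39, 7.76, 10.6 and 10.7 FPKM in Glom db/+, 9.09 in Glom db/+ PIO and 10.4 in Glom db/db PIO. The 3 others were 3 in DRG db/+, 2.67 in Cortex db/db and 1.12 in Cortex db/db PIO. Where it was listed, Il18 in Glom was above every Il1b value of that tissue.

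Il1rn encodes the IL-1 receptor antagonist, which occupies the receptor without signalling. It lies at chr2:24192373-24207014 (mm9, plus strand, with 5 exons in its longest transcript). In SCN it was listed at 0.04, 0.15, 0.05 and 0.02 FPKM in db/+ mice and at 0.02 to 0.11 FPKM in db/+ PIO mice. In db/db mice it was listed at 10.03, 0.94, 1.34 and 4.26 FPKM. In db/db PIO mice 2 libraries held 2.20 and 1.66 FPKM and the other 4 were listed at 0. Each db/db library with a value was above each db/+ library. For db/+ versus db/db the difference was 1.92 on the log2 scale (SE 0.37, n = 4 and 4). Il1rn reached 1 FPKM only in 3 db/db and 2 db/db PIO libraries, so that it entered the fit through the groups in which it is high and its call there is no support. With no filter on low values the adjusted p from limma was 0.00750. With each 0 entered as a value the log2 fold change was 1.28 (adjusted p = 0.222 from limma), and without any 1 of those 5 libraries the gene no longer entered the fit.

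The rise of Il1rn in SCN was spread over libraries that differed among themselves, from 0.94 to 10.03 FPKM. In the other tissues Il1rn stayed between 0.02 and 0.60 FPKM in all groups. Beside it in SCN stood Cd14, the only macrophage marker of 11 with a value in every SCN library. Cd14 ranged from 10.1 to 14.9 FPKM in db/db PIO and from 7.90 to 15.1 in db/db mice. It ranged from 3.34 to 5.28 in db/+ PIO and from 5.08 to 11.3 in db/+ mice. Cd68 was listed at 0 in all of these libraries. The neutrophil gene S100a8 rose by a log2 fold change of 2.62 for db/+ versus db/db, and Mmp9 fell by 1.53. Of 11 neutrophil markers, the 2 with a value in every SCN library (Cxcr2 and Mmp9) had lower sums in db/db mice. These were 1.58 to 6.30 FPKM in db/+ and 0.54 to 1.05 in db/db mice. The part of these cells in the Il1rn values was not tested.

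Il18bp encodes the soluble protein that neutralizes IL-18 and lies at chr7:109163593-109166669 (mm9, minus strand, 7 exons). It was listed in 46 libraries, at 1.08 to 5.27 FPKM in SCN, 0.28 to 0.85 in DRG, 1.19 to 2.38 in Cortex and 2.59 to 3.62 in 3 Glom libraries. The SCN medians were 1.52 FPKM in db/db PIO, 1.30 in db/db, 2.09 in db/+ PIO and 1.71 in db/+ mice, and the 4 groups overlapped. The lowest and highest log2 fold changes in SCN were -0.41 (adjusted p = 0.249) and 0.14 (adjusted p = 0.888), both from limma, and no comparison was called. Il18bp was thus measured in tissues in which its ligand Il18 had no or few values.

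**Figure D3:**
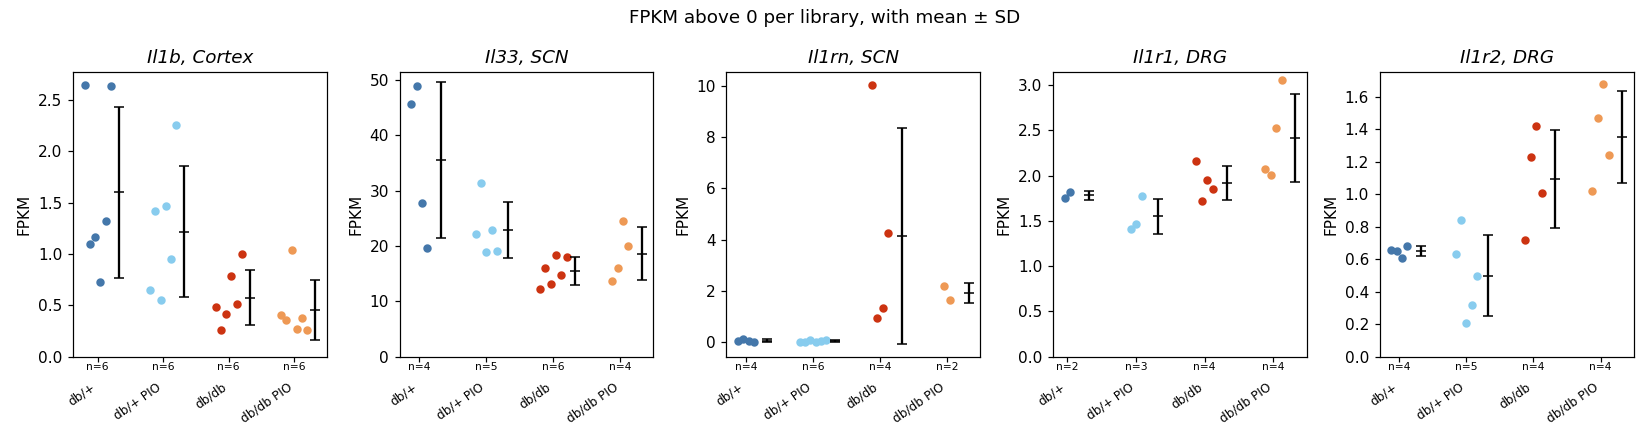
FPKM of the 5 genes with a called difference, in the tissue of the call, by group. Points are libraries with a value above 0, bars give mean ± SD and n is the number of points. The Il1b groups overlap in Cortex, whereas the db/+ and db/db values of Il33 and Il1rn in SCN and the db/+ PIO and db/db PIO values of Il1r1 and Il1r2 in DRG do not. The genes are shown because these same values gave a call, so that a gap between groups is no added support. The share of all genes without overlap was not counted. Il1rn and Il1r2 passed the filter on low values only through the diabetic groups.

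Il1r1 encodes the signalling receptor of IL-1 alpha and IL-1 beta and lies at chr1:40281925-40373043 (mm9, plus strand, 11 exons). It was listed at 4.30 to 7.40 FPKM in 7 SCN libraries, 4.31 to 6.01 in 5 Glom libraries, 1.41 to 3.06 in 13 DRG libraries and 0.42 to 1.64 in 21 Cortex libraries. The receptor was thus above its ligands Il1a and Il1b in every SCN and DRG library with a value. In DRG the db/+ PIO libraries held 1.41, 1.47 and 1.77 FPKM. The db/db PIO libraries held 2.07, 2.01, 2.52 and 3.06 FPKM, each above each db/+ PIO library. Il1r1 rose by 0.41 on the log2 scale (SE 0.11, n = 3 and 4), with an adjusted p of 0.0323 from limma. The call was lost under other ways of fitting, with an adjusted p of 0.0579 with no filter on low values, 0.0655 with quantile normalization, 0.132 with the compared groups alone 0.0945 with the replicate number as a block (log2 fold change of 0.33) and 0.833 with each 0 entered as a value, and without db/db PIO replicate 5 or replicate 6 (adjusted p of 0.0647 at most). Without any 1 of the 3 db/+ PIO libraries with a value the test could not be made. In untreated DRG the values were 1.75 and 1.82 FPKM in db/+ and 1.72 to 2.16 in 4 db/db libraries, which overlap and were too few to test. Markers of other cells rose with Il1r1 in the treated DRG. All 3 adipocyte markers tested rose (Fabp4 by 2.59, Adipoq by 1.46 and Lipe by 0.40 on the log2 scale), with Fabp4 at a median of 8.61 FPKM in db/+ PIO and 91.6 in db/db PIO mice. The fibroblast marker Pdgfra rose by 0.44 (1 of 3 fibroblast markers tested), and 2 of 8 macrophage markers rose. The part of these cells in the Il1r1 result was not tested.

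Il1rap encodes the chain shared by the receptors of IL-1 and IL-33. It lies at chr16:26581790-26730203 (mm9, plus strand, 11 exons in its longest transcript), and its exons overlap those of a gene on the opposite strand. It was highest in SCN, at 12.1 to 22.2 FPKM in 10 libraries, followed by 3.65 to 6.93 in Glom, 1.51 to 3.04 in DRG and 0.30 to 2.98 in Cortex. The SCN values were 16.0, 12.1 and 15.7 FPKM in db/db PIO, 21.6 and 17.0 in db/db, 21.5 and 21.2 in db/+ PIO and 16.9, 20.8 and 22.2 in db/+ mice. The db/db PIO libraries held the 3 lowest of these values, and no comparison in SCN could be tested with so few values. In the other tissues 10 comparisons were tested, and the value furthest from 0 on the log2 scale was 0.35 (SE 0.21, limma adjusted p = 0.337) for db/db versus db/db PIO in Cortex.

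Il1r2 encodes a receptor that binds IL-1 without signalling, and was the member with its highest level in DRG. It lies at chr1:40141613-40182064 (mm9, plus strand, 9 exons). It was at 0.21 to 1.68 FPKM in DRG and at or below 0.83 in SCN, 0.71 in Glom and 0.53 in Cortex. In DRG the db/+ PIO libraries held 0.63, 0.84, 0.21, 0.32 and 0.50 FPKM. The db/db PIO libraries held 1.02, 1.47, 1.68 and 1.24 FPKM, each above each db/+ PIO library. The difference was 0.66 on the log2 scale (SE 0.12, n = 5 and 4). Only 7 DRG libraries reached 1 FPKM, 4 of them db/db PIO and 3 db/db, so that Il1r2 entered the fit through the diabetic groups and its call there is no support. With no filter on low values the adjusted p from limma was 0.00671. With each 0 entered as a value the log2 fold change was 0.34 (adjusted p = 0.830 from limma).

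The untreated DRG groups gave a similar order for Il1r2. They belong to the same fit, which Il1r2 entered through the diabetic libraries, so that this order is no support for the treated call. The db/+ libraries held 0.66, 0.65, 0.61 and 0.68 FPKM. The db/db libraries held 0.72, 1.23, 1.42 and 1.01 FPKM, each above each db/+ library. The difference of 0.33 on the log2 scale (SE 0.13, n = 4 and 4, limma adjusted p = 0.150) was not called, and the difference between the treated and the untreated contrast was not tested. Il1r2 is known from neutrophils and macrophages. The 4 neutrophil markers of 11 with a value in every DRG library (S100a9, Retnlg, Cxcr2 and Camp) had sums from 16.0 to 272 FPKM in db/+ PIO and from 15.6 to 404 in db/db PIO mice, which overlap over most of their range. Of 8 macrophage markers tested in DRG, 2 rose in the treated mice (Cd163 by 1.04 and Mrc1 by 0.52 on the log2 scale), and 4 rose in the untreated mice. The part of either cell type was not tested.

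In SCN, Il1r2 stayed below the filter and was at 0.10 to 0.41 FPKM in db/db PIO, 0.04 to 0.27 in db/db, 0.04 to 0.37 in db/+ PIO and 0.09 to 0.83 in db/+ mice (n = 5 with a value in each). The groups overlapped. The exact permutation p was 0.0317 for db/db versus db/db PIO (difference of 0.22 on the log2 scale) and 0.0635 for db/+ versus db/db (-0.34), both two-sided. In Cortex it was 0.0173 for db/+ PIO versus db/db PIO (0.15, n = 5 and 6) and 0.0317 for db/+ versus db/+ PIO (-0.14, n = 5 and 5). In the same Cortex comparison of db/+ with db/+ PIO, Il1rn differed by -0.08 (exact permutation p = 0.0455, n = 6 and 6), with both groups at or below 0.21 FPKM. These belong to the 48 tests named for Il1a and were not adjusted. Il1rl1, the receptor of IL-33, lies at chr1:40486415-40522260 (mm9, plus strand, 11 exons in its longest transcript) and was listed at 0 in all 95 libraries, so that nothing can be said of its level in any tissue.

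**Figure D4:**
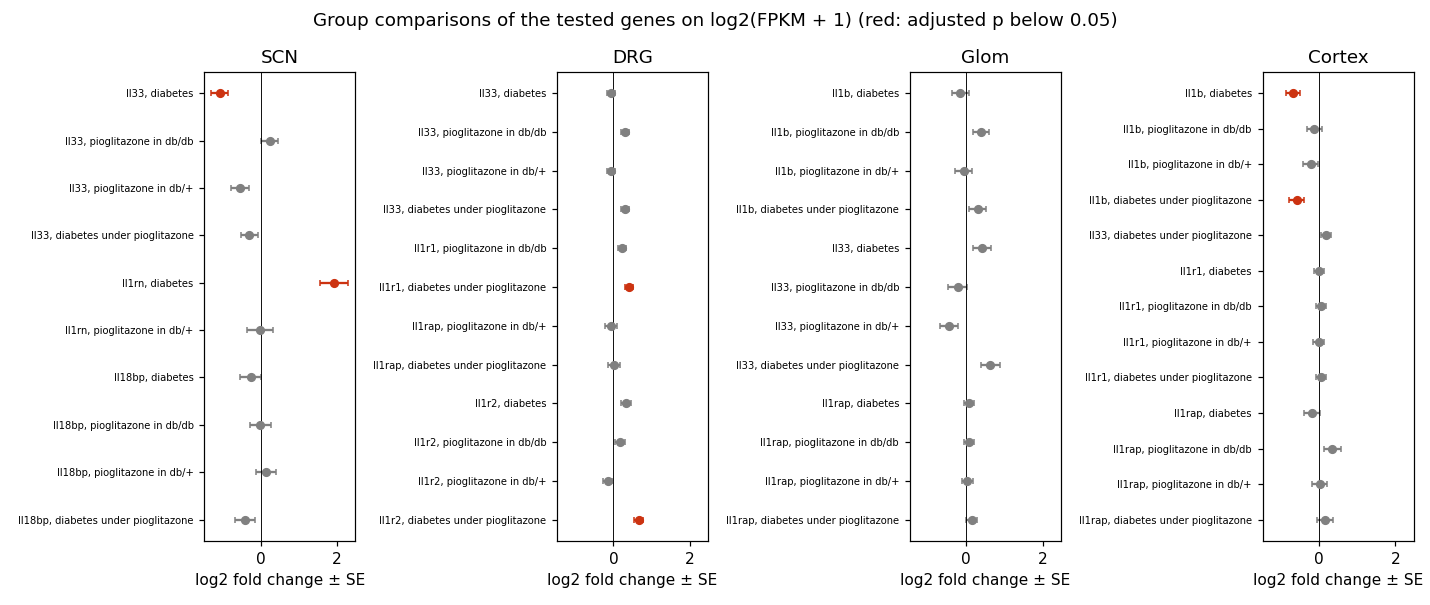
log2 fold changes ± SE on log2(FPKM + 1) for the 47 tested pairings of a gene with a group comparison, by tissue, positive where the db/db or the treated group was higher. Red points passed an adjusted p of 0.05 and are Il33 (-1.08) and Il1rn (1.92) in SCN, Il1r1 (0.41) and Il1r2 (0.66) in DRG, and Il1b in Cortex (-0.68 and -0.58). Il1rn and Il1r2 passed the filter only through the diabetic groups, and Il1b passed it in Cortex through the non-diabetic groups.

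The order of tissues was tested in the db/+ mice, where genotype and drug do not enter. Between 67.1% and 79.5% of all genes were called for any pair of tissues, so that a called difference is the usual case. Of 16 member tests, 12 were called, with 3 of 4 for SCN and DRG (79% of 4330 genes), 3 of 3 for SCN and Glom (67.1% of 4441), 2 of 2 for SCN and Cortex (76.4% of 4475), 2 of 3 for DRG and Glom (79.1% of 3779), 1 of 2 for DRG and Cortex (79.5% of 3932) and 1 of 2 for Glom and Cortex (75.5% of 4097). The median log2 difference of all genes was as large as 0.33 between tissues, and the values that follow are given after subtraction of that median. Il33 was higher in SCN than in DRG by 3.80 and than in Glom by 3.92, and DRG and Glom did not differ beyond their spread (-0.03, adjusted p = 0.140 from limma for the unshifted value of -0.33). Il1rap was higher in SCN than in Glom by 1.88, in DRG by 2.35 and in Cortex by 2.57, and higher in Glom than in DRG by 0.62 and than in Cortex by 0.78. DRG and Cortex were not told apart for Il1rap (0.22, adjusted p = 0.274 from limma for the unshifted 0.19). Of 6 SCN db/+ libraries, 3 were listed at 0 for Il1rap and 2 for Il33. When each 0 was entered as a value, all 5 Il1rap calls were lost, with unshifted differences of 0.01 for SCN minus Glom (adjusted p = 1 from limma), 1.06 for SCN minus DRG (0.400), 0.68 for SCN minus Cortex (0.636), -1.05 for DRG minus Glom (0.409) and 0.67 for Glom minus Cortex (0.693). The Il33 call was then lost for SCN minus Glom (2.10 and no longer past the threshold in limma) and held for SCN minus DRG (2.42, adjusted p = 0.0392).

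Il1b was lower in both nerve tissues than in both kidney tissues, so that SCN, the tissue with the most Il33 and Il1rap, was low in Il1b. After subtraction of the median it was lower in SCN than in Glom by 1.26 and than in Cortex by 1.40, and lower in DRG than in Glom and Cortex by 1.12 and 1.11 on the log2 scale. SCN and DRG did not differ beyond their spread (-0.29, adjusted p = 0.897 from limma for the unshifted 0.04), nor did Glom and Cortex (-0.04, adjusted p = 0.223 from limma for the unshifted 0.29). In db/+ mice Il1b reached 1 FPKM in 5 Glom and 5 Cortex libraries and in 0 of SCN and DRG. It thus entered the fit only through the kidney tissues in which it is high, so that its 4 calls there are no support. They held with each 0 entered as a value and with no filter on low values. Il18bp was higher in SCN than in DRG by 0.59, but it reached 1 FPKM in 3 SCN and 2 Cortex libraries only and entered the fit through the tissues in which it is high. These contrasts compare whole tissues of the same study and rest on 3 to 6 values a tissue. The methods describe the 4 tissues as taken from 6 mice a group, and the labels do not say which libraries share a mouse. The fit took all libraries as independent, so that any pairing of tissues by mouse was left out.

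SCN and Glom were also compared for the size of their response, since the study set nerve beside kidney. For db/+ versus db/db, 2 of 3 members tested were called (18.8% of 3502 genes). The response of Il33 was lower in SCN than in Glom by 1.48 on the log2 scale (SE 0.34, adjusted p = 0.00167 from limma), from fold changes of -1.08 in SCN and 0.40 in Glom. The direction turned with each 0 entered as a value, to 0.22 (adjusted p = 0.980 from limma). The response of Il1rn was higher in SCN by 1.87 (SE 0.33), with the same entry through the diabetic libraries as above, and with no filter on low values its adjusted p from limma was 0.000178. Entering each 0 as a value gave 1.23 for Il1rn (adjusted p = 0.219 from limma). For db/db versus db/db PIO, 0 of 2 members were called (22.9% of 3345 genes), with 0.46 for Il33 and -0.29 for Il1b. These fits also took the libraries of the tissues as independent.

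Other genes of the pathway were taken from lists chosen with earlier results of these data known. The remaining members of the family and its receptors were low, with 9 of 11 symbols at a value in at least 1 library and none in a group fit. Il1f9, which encodes IL-36 gamma, was the only one with a value in all 95 libraries, at 0.38 to 0.98 FPKM in DRG and 0.03 to 0.63 in the other tissues. Il18r1, a chain of the IL-18 receptor, and Il1f8 were listed at 0 throughout. The single-chain inhibitor Sigirr had 14 values in DRG, with a median of 0.33 FPKM.

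Downstream of the receptors few genes were called in untreated SCN. For db/+ versus db/db, 1 of 6 adaptor and kinase genes rose (Irak2, a kinase of the receptor complex, 0.92), 1 of 6 NF-kB genes rose (Nfkbia, the inhibitor that NF-kB itself induces, 0.62) and 1 of 7 IL-1 response genes rose (Lcn2, which encodes lipocalin 2, 0.55), all as log2 fold changes. These counts are near the 14.9% of all genes called in that comparison. Of 3 inflammasome and processing genes, 1 fell (Ctsg, a protease of neutrophils and mast cells, by 1.10). For db/+ PIO versus db/db PIO, 4 of 6 IL-1 response genes rose, Ccl2 by 0.90, Lcn2 by 0.84, Cxcl1 by 0.74 and Icam1 by 0.68, beside 33.8% of all genes called. Of the other lists, Irak2 rose (1 of 2 adaptor and kinase genes, 1.06), Nfkbia and Rel rose by 0.86 and 0.32 and Nfkbie fell by 0.45 (3 of 5 NF-kB genes), and Pycard rose by 0.58 (1 of 2 inflammasome genes). In the same comparison 4 of 5 macrophage markers rose, led by Lyz2 at 2.13. Arg1, which IL-33 and other type 2 signals induce in macrophages, rose by 1.59 for db/+ versus db/db, by 3.98 in the treated mice and by 2.06 for db/db versus db/db PIO. In SCN 14.9%, 33.8% and 10.1% of all genes were called in these comparisons. Over the 4 tissues together, 2 of 5, 3 of 5 and 1 of 5 tests of the IL-33 and type 2 list were called. Arg1 is a single gene of that list and does not stand for a response to IL-33.

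In Glom, 4 of 7 IL-1 response genes rose for db/+ versus db/db, beside 25.4% of all genes called, Ptges by 2.30, Lcn2 by 2.15, Icam1 by 0.61 and Ptgs2 by 0.50, while Il1b itself was not called (-0.16, adjusted p = 0.653 from limma). Ptges and Ptgs2 encode enzymes of prostaglandin E2 synthesis. With pioglitazone in db/db mice, 2 of the 7 fell, Ptges by 2.74 and Lcn2 by 1.52, beside 23.1% of all genes. Epithelial markers moved alongside, with 4 of 4 tested markers higher in db/db and 4 of 4 lower with the drug, and Lcn2 is also made by tubule cells. Pycard, the adaptor of the inflammasome, followed the same course, with log2 fold changes of 0.61 and -1.22. Of the macrophage markers, 1 of 5 rose in db/db mice (C1qb by 1.24) and 4 of 6 fell with the drug, as given for Il1b. Both fibroblast markers tested, Dcn and Col1a1, rose in db/db mice and fell with the drug. The part of these cells in the values was not tested.

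In untreated DRG, where 4.13% of all genes were called, Nfkbia rose by 0.63 (1 of 3 NF-kB genes tested) and Ptges by 0.32 (1 of 3 IL-1 response genes). Of 5 adaptor and kinase genes, Irak3, which restrains the pathway, rose by 0.48, and Map2k6, a kinase upstream of p38, fell by 0.41. In treated DRG, where 8.64% of all genes were called, Nfkbia rose by 0.49 (1 of 4) and Ccl2 fell by 0.59 (1 of 3), and none of 7 adaptor and kinase genes was called. In Cortex no gene of the 5 downstream lists was called for db/+ versus db/db, whereas in the treated mice, with 19.7% of all genes called, the NF-kB subunit gene Relb fell by 0.95, Ccl2 by 0.75, the inflammatory caspase gene Casp4 by 0.75, the pore gene Gsdmd by 0.56, Nfkbie by 0.47 and the adaptor gene Myd88 by 0.34 on the log2 scale. Pioglitazone in db/+ mice called no gene of these lists in any tissue.

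The genes most like a member were sought over the 16 group means of log2(FPKM + 1), which are points from the same 4 tissues and are given as a description. Only Il1b and Il1r2 had at least 3 values in all 16 groups, and each was set beside 2567 other such genes. Il1b was closest to Arf4 (Pearson's r = 0.97), Rerg (0.96) and Cd244 (0.96). Il1r2 was closest to Gcnt7 (0.92), Sox11 (0.92) and Gm16287 (0.92).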

How the data were processed

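RNA-Seq measured gene expression in 95 libraries of 16 groups, prepared with an Illumina TruSeq mRNA kit. According to the methods, TopHat mapped the reads to mouse build mm9, and the FPKM values that the authors deposited came from Cufflinks, one per gene symbol and rounded to 2 decimals. Cufflinks and mm9 are also named in the submitters' processing notes, without a version. The study called DEGs with Cuffdiff, which needs reads. Here limma 3.58.1 (R 4.3.3) was used on log2(FPKM + 1), with all 4 groups of a tissue in 1 fit, an intensity trend and Benjamini-Hochberg adjustment over all genes tested. A 0 was read as missing. A gene needed 5 or more libraries at 1 FPKM or above to enter, and 3 or more values in both groups to be tested. Members below this filter were compared with exact permutation tests (Python 3.11.15, scipy 1.17.1). The labels call the replicates biological, and 0 pairs of libraries were identical.

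All 10 members are named, and other genes only from lists of the pathway and of cell types. The members and lists were chosen with earlier results of these data known. The fit was tested on simulated data. Alternatives were another pseudocount, no filter, median-of-ratios and quantile scaling, the compared groups alone, the replicate number as a block, at least 5 values, each 0 entered as a value, and each library left out. Gene positions are from GENCODE vM1 on mm9. The marker check of the labels SCN and Glom is not reported here.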

Additional observations from a re-analysis of the deposited data

Results flagged for a closer look

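Of 91 groups with 4 to 10 values of a member, 10 held a library set far from the rest by Dixon's test on unlogged FPKM. For normally distributed values chance flags about 1 in 20 groups. FPKM need not follow that distribution, so that 10 of 91 is not read as an excess. Il1b stood at 4.27 FPKM in Glom db/+ replicate 2, where the other values were 1.12 to 1.93, and at 1.04 in Cortex db/db PIO replicate 3, where the others were 0.26 to 0.41. Il1r2 stood at 0.53 FPKM in that same Cortex library (others 0.06 to 0.18). It stood at 0.37 in SCN db/+ PIO replicate 2 (others 0.04 to 0.12), at 0.27 in SCN db/db replicate 2 (others 0.04 to 0.09) and at 0.07 in Cortex db/+ PIO replicate 6 (others 0.03 to 0.04). The receptor chains were low in 2 Cortex libraries, with Il1r1 at 0.42 FPKM (others 1.22 to 1.64) and Il1rap at 0.30 (others 1.77 to 2.20) in db/db replicate 6, and Il1rap at 0.70 (others 1.98 to 2.5) in db/+ PIO replicate 6. Il18bp stood at 5.27 FPKM in SCN db/+ PIO replicate 4 (others 1.11 to 2.29).

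The response to diabetes differed between SCN and Glom by 1.87 on the log2 scale for Il1rn and by -1.48 for Il33, by the test of the difference itself in limma. Il1rn passed the filter on low values only through the diabetic SCN libraries in which it is high, so that its call is no support. With each 0 entered as a value the Il33 difference turned to 0.22 (adjusted p = 0.980 from limma) and that of Il1rn was 1.23 (adjusted p = 0.219 from limma).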

How the results depend on the processing

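Another pseudocount and median-of-ratios scaling changed no count of members called in any of the 24 comparisons and no call of a single member. With each 0 entered as a value, members called went from 2 to 0 for diabetes in SCN, from 2 to 0 for diabetes under pioglitazone in DRG, from 1 to 0 for both genotype comparisons in Cortex, from 3 to 1 for SCN minus DRG and from 2 to 0 for the difference of the diabetes response between SCN and Glom. In that setting Il33 reversed, to a log2 fold change of 0.62 for diabetes and 0.40 for pioglitazone in db/+ mice in SCN, and to differences of response between SCN and Glom of 0.22 for diabetes and -0.71 for pioglitazone. With at least 5 values a group, too few members could be tested, and the count was 0 for diabetes in SCN, for diabetes under pioglitazone in DRG, for the difference of the diabetes response, and for every tissue pair but Glom minus Cortex. Without the filter on low values, Il1a was called for pioglitazone in db/db SCN (1 in place of 0), 1 in place of 2 members was called for diabetes under pioglitazone in DRG, and 2 in place of 1 for DRG minus Cortex and for Glom minus Cortex. Quantile normalization gave 1 in DRG for diabetes under pioglitazone, 1 for pioglitazone in db/db Glom (Il1b) and 0 for diabetes under pioglitazone in Cortex. The compared groups alone gave 1 in DRG under pioglitazone and 0 for diabetes in Cortex, which changed Il1b to an adjusted p of 0.0575 from limma. The cause of these changes was not tested, other than where fewer members could be tested.

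With the replicate number as a block, 1 in place of 2 members was called for diabetes under pioglitazone in DRG, where Il1r1 had an adjusted p of 0.0945 from limma, and the count changed in none of the 23 others. Same-numbered libraries correlated at medians of -0.000687 (SCN), 0.0601 (DRG), 0.12 (Glom) and -0.00715 (Cortex), and 10 of 36, 15 of 33, 20 of 36 and 11 of 36 pairs exceeded 0.1. Libraries with different numbers correlated at medians of 0.0102 (SCN), 0.00607 (DRG), -0.0137 (Glom) and 0.0105 (Cortex), so that same-numbered libraries were somewhat more alike in Glom and DRG. Not every pair exceeded 0.1 in any tissue, and the numbers were not taken to pair the libraries. These pairs join different groups within a tissue and say nothing of tissues from the same mouse.

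With each library left out in turn, members called ranged from 1 to 2 for diabetes in SCN, 1 to 3 for diabetes under pioglitazone in DRG, 0 to 1 for both genotype comparisons in Cortex, 1 to 3 for SCN minus DRG and for SCN minus Glom, 0 to 2 for SCN minus Cortex and 1 to 2 for the difference of the diabetes response, and no called member changed sign.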
